A study of Drosophila melanogaster with 16 samples.

Results

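The genes described here are 9 genes of the cell cycle and of DNA replication, *CycA*, *CycB*, *CycE*, *stg*, *polo*, *Mcm2*, *Mcm5*, *Myb* and *dup*, taken by gene symbol. All 9 were found among the 15953 genes of the trisomy 2L table and among the 13861 genes of the metafemale table, which together list 16074 genes. Cyclins bind and switch on the cyclin-dependent kinases that drive a cell through its cycle, with cyclin E acting at the entry into DNA replication and cyclins A and B at mitosis. *stg* encodes the Cdc25 phosphatase that removes the inhibitory phosphate from the mitotic kinase, and *polo* encodes a kinase of mitosis. Mcm2 and Mcm5 are subunits of the ring that unwinds DNA at replication forks, *dup* encodes the Cdt1 protein that loads this ring at origins, and Myb is a DNA-binding subunit of the dREAM complex, which represses or activates many cell cycle genes. In larvae of the third instar most tissues grow by endocycles, in which DNA is replicated without mitosis, whereas imaginal discs, neuroblasts and the germ cells of the gonads still divide.

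RNA was sequenced from pools of whole *Drosophila* larvae of the third instar grown at one temperature. MSL2-trisomy 2L females and males and MSL2-metafemales carry a transgene on 2R that expresses MSL2, the subunit of the Male Specific Lethal (MSL) complex that is normally made in males only. The promoter of this transgene is not given in the sources used here. Trisomy 2L females and males, labelled XX,AAA and XY,AAA, carry 3 copies of chromosome arm 2L, come from females with a compound 2L crossed to Canton S males and lack the transgene. Metafemales, labelled XXX,AA, carry 3 X chromosomes, come from females with a compound X crossed to Canton S males and also lack it. Normal diploid females and males come from the Canton S stock, so diploids and aneuploids differ in parents as well as in chromosome number. The MSL2 groups come from females of the same compound stocks crossed to males homozygous for the transgene. They therefore differ in fathers, as well as in the transgene, from the aneuploids without MSL2.

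The labels list 3 libraries for each trisomy 2L group, with or without MSL2, and 2 for each metafemale group. The study sequenced diploids in other, single-end runs, with 4 replicates of each genotype in the trisomy 2L group and 3 in the metafemale group, so diploid means exist in both tables and come from different larvae. Those runs also held trisomy 2L larvae and metafemales without MSL2, and the sources used here do not say whether their single-end libraries, their paired-end libraries or both entered the means without MSL2. The number of libraries behind these means is therefore unknown, and so is which of the ratios with MSL2 and those over diploids cross the sequencing runs. Diploids were sequenced in single-end runs and MSL2 groups in paired-end runs. Any mean with MSL2 set against a diploid mean therefore crosses runs. Each table gives only 1 mean per group, in counts scaled to the mapped reads (CPM) and then adjusted for batch, so no value below has an error or a replicate number and no test between groups could be made. The depth behind a mean is unknown. The tables were normalized separately, and ratios below are taken within 1 table, except where the diploid means of the tables are set against each other. A gene is called higher or lower where its group means differ by at least 1.5-fold, among genes with a value in both groups and an average of at least 1 CPM, and the share of all such genes called is given for each comparison whose calls are counted. CPM values are not corrected for transcript length, so levels are compared between groups and not between genes.

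*CycA* (3L:11826719-11833578, release 6) had 42.6 CPM in MSL2-trisomy 2L males, 51.2 in trisomy 2L males and 105 in diploid males. In females it had 19.9 CPM with MSL2, 39.9 in trisomy 2L and 51.3 in diploids. In the other table it had 21.6 CPM in MSL2-metafemales, 21.4 in metafemales, 59.1 in diploid males and 70.4 in diploid females. All aneuploid means of this mitotic cyclin lay below the diploid mean of the same sex, and in trisomy 2L it was lower again with MSL2 in both sexes.

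*CycB* (2R:22803521-22806948) had 44.0 CPM in MSL2-trisomy 2L males, 61.5 in trisomy 2L males and 57.6 in diploid males. In females it had 36.0 CPM with MSL2, 39.1 in trisomy 2L and 31.96 in diploids. It had 14.8 CPM in MSL2-metafemales, 18.2 in metafemales, 31.8 in diploid males and 30.2 in diploid females. Unlike *CycA*, the *CycB* sum was therefore below the diploid level in metafemales but not in trisomy 2L without MSL2. In males this rests on a transcript with 12.4 CPM in trisomy 2L and no value in diploids. The log2 ratio of trisomy 2L males over diploid males was 0.095 for the sums but -0.23 over transcripts with a value in both groups. It was -0.53 for the transcript with the highest mean over the table.

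*CycE* (2L:15727581-15748150), the only gene of the 9 on the trisomic arm, had 11.2 CPM in MSL2-trisomy 2L males, 15.1 in trisomy 2L males and 24.5 in diploid males. In females it had 11.9 CPM with MSL2, 14.0 in trisomy 2L and 9.002 in diploids. It had 13.2 CPM in MSL2-metafemales, 7.45 in metafemales, 13.3 in diploid males and 17.7 in diploid females. These sums rest on different transcripts, because a value is given for 2 of the 5 listed transcripts in diploid females, for 4 in diploid males and for all 5 in trisomy 2L of both sexes. The direction of *CycE* depends on this in several comparisons. Where a single transcript of a gene is used below, it is the one with the highest mean over all groups of its table, which need not be the most abundant one in the groups compared.

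*stg* (3R:29251826-29255800) had 25.8 CPM in MSL2-trisomy 2L males, 29.3 in trisomy 2L males and 24.5 in diploid males. In females it had 19.0 CPM with MSL2, 28.6 in trisomy 2L and 26.4 in diploids. It had 18.9 CPM in MSL2-metafemales, 21.7 in metafemales, 31.0 in diploid males and 34.96 in diploid females. In both tables the lowest *stg* mean belonged to the female or metafemale group with MSL2.

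*polo* (3L:20309654-20313466) had 112 CPM in MSL2-trisomy 2L males, 105 in trisomy 2L males and 180 in diploid males. In females it had 32.6 CPM with MSL2, 54.3 in trisomy 2L and 80.5 in diploids. It had 31.6 CPM in MSL2-metafemales, 36.2 in metafemales, 97.5 in diploid males and 74.2 in diploid females. Males had the higher *polo* mean in each of the 4 pairs of matched groups, and aneuploids had the lower mean in each comparison with diploids.

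Of the replication genes, *Mcm2* (3R:8264970-8267924) had 26.8 CPM in MSL2-trisomy 2L males, 25.7 in trisomy 2L males and 23.0 in diploid males, and 20.9, 23.4 and 24.9 CPM in the corresponding females. In the other table *Mcm2* had 19.7 CPM in MSL2-metafemales, 21.1 in metafemales, 25.2 in diploid males and 28.4 in diploid females. *Mcm2* was the steadiest of the 9 genes in the trisomy 2L table, where its highest mean was 1.28 times its lowest, against 5.53 times for *polo* and 5.27 times for *CycA*.

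*Mcm5* (3R:10788524-10791150) had 31.0 CPM in MSL2-trisomy 2L males, 25.9 in trisomy 2L males and 29.2 in diploid males, and 24.0, 26.1 and 30.7 CPM in the corresponding females. It had 20.6 CPM in MSL2-metafemales, 18.4 in metafemales, 24.7 in diploid males and 28.7 in diploid females. Its highest mean in the trisomy 2L table was 1.29 times its lowest.

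*dup* (2R:15376619-15380988) ran against most of the others in trisomy 2L. It had 19.9 CPM in MSL2-trisomy 2L males, 19.8 in trisomy 2L males and 12.04 in diploid males, and 19.2, 16.7 and 14.3 CPM in the corresponding females. It had 7.81 CPM in MSL2-metafemales, 10.7 in metafemales, 12.9 in diploid males and 13.1 in diploid females. The trisomy 2L means of *dup* were thus above both diploid means, and the metafemale means below both.

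*Myb* (X:15854832-15857823), the only X-linked gene of the 9, had 82.6 CPM in MSL2-trisomy 2L males, 78.3 in trisomy 2L males and 123 in diploid males. In females it had 48.0 CPM with MSL2, 60.1 in trisomy 2L and 88.4 in diploids. In the metafemale table, where the aneuploids carry 3 copies of it, *Myb* had 88.7 CPM in MSL2-metafemales, 83.4 in metafemales, 82.3 in diploid males and 73.0 in diploid females. *Myb* was below the diploid level in all trisomy 2L groups and above the diploid female level in both metafemale groups. *Myb* shares 2967 bases with *CG46440* on the same strand, and *CycA* shares 1815 bases with *CG7264* on the opposite strand. Strand cannot tell reads of *Myb* and *CG46440* apart. Whether the counting used strand is not given in the sources used here, so reads of *CycA* and *CG7264* cannot be told apart either.

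**Figure D1:**
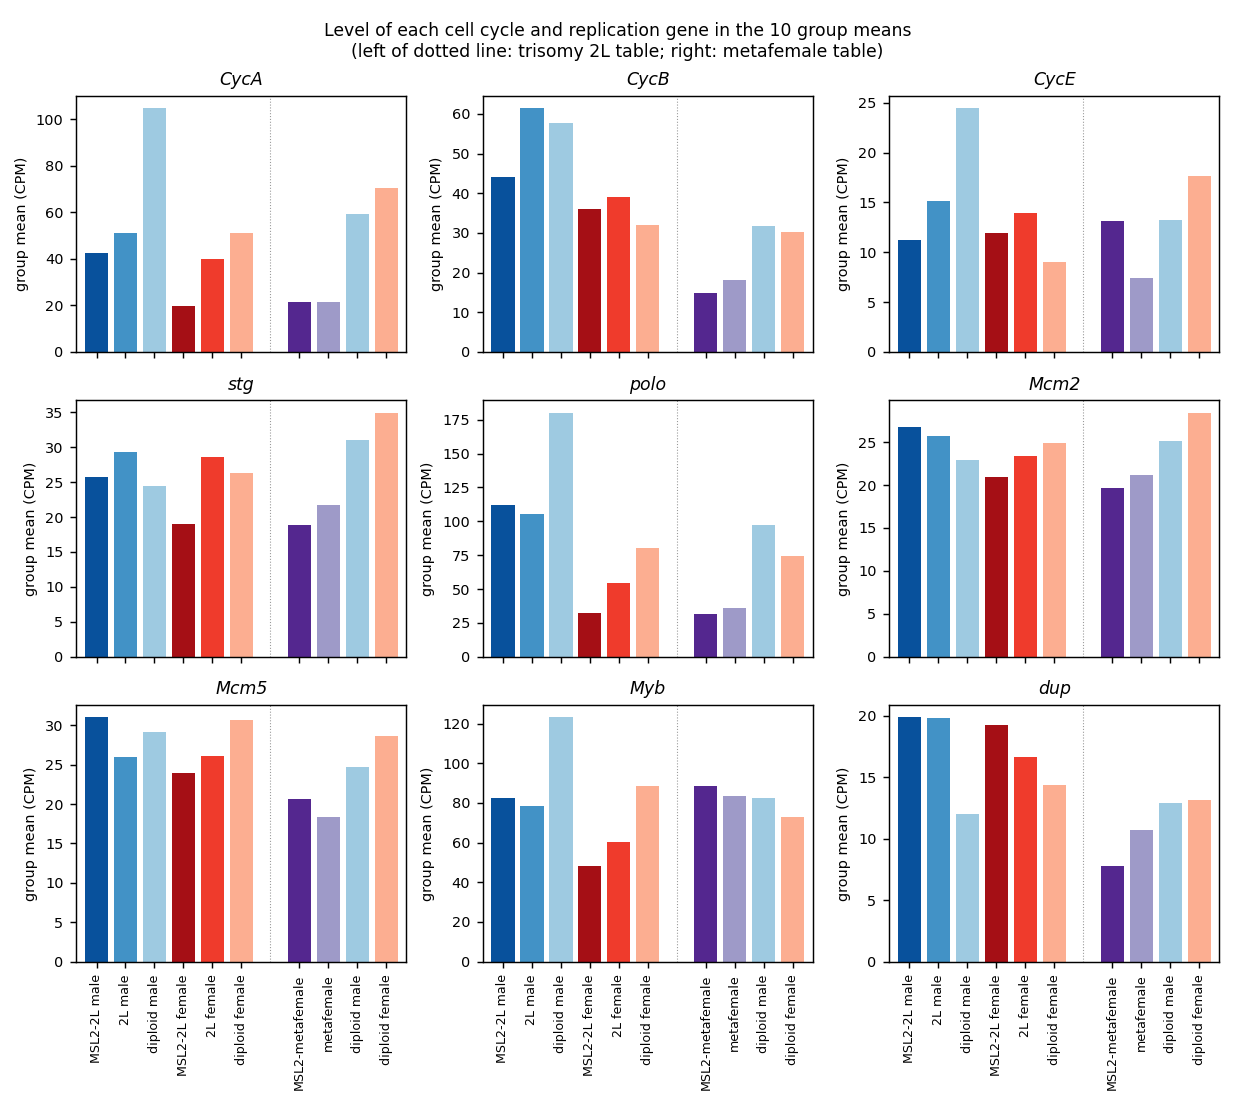
Group mean of each gene in CPM (vertical axis, from 0) in the 6 means of the trisomy 2L table and the 4 means of the metafemale table, with 1 bar for each mean and no error because no library values were given. *polo* spans 32.6 to 180 CPM in the trisomy 2L table, whereas *Mcm2* spans 20.9 to 26.8 CPM.

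The members' means summed to 396 CPM in MSL2-trisomy 2L males, 412 in trisomy 2L males and 579 in diploid males. The corresponding sums in females were 232, 302 and 357 CPM. The sums were 237 CPM in MSL2-metafemales, 239 in metafemales, 378 in diploid males and 371 in diploid females.

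The comparison of larvae with and without MSL2 asks what the ectopic protein does to an aneuploid genome. In trisomy 2L females, 3 of the 9 genes were called lower with MSL2 and 0 higher, against 21.5% of 10352 genes called lower and 10.8% called higher. The 3 were *CycA* (log2 ratio -1.003), *polo* (-0.74) and *stg* (-0.59), all genes of mitotic entry or mitosis. *CycB*, which also acts at mitosis, stood at -0.12, near the median of all genes, and was not called. The ratio was below 1 for 8 of the 9, with *dup* the exception at 0.20 on the log2 scale. The median log2 ratio was -0.23 over the 9 genes and -0.14 over all genes tested. *stg* was just past the 1.5-fold line, and it was not called once the ratios were centred on the median of all genes. The transcripts of a gene did not move together, since the *CycE* span shared by CycE-RC and CycE-RF stood at -1.87 on its own while CycE-RD had 8.92 CPM with MSL2 and 4.25 without it.

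In trisomy 2L males, 0 of the 9 genes were called in either direction with MSL2, against 8.13% of 11695 genes called higher and 8.46% called lower. The log2 ratios ran from -0.48 for *CycB* to 0.26 for *Mcm5*, with a median of 0.0024, beside 0.021 over all genes. The female minus male difference of the log2 MSL2 ratio was -0.83 for *polo*, -0.74 for *CycA*, -0.40 for *stg* and -0.40 for *Myb*, and its median was -0.38 over the 9 genes and -0.16 over all genes. *CycB*, *CycE* and *dup* differed the other way, by 0.37, 0.20 and 0.20. These differences between the sexes were not tested.

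In metafemales, *CycE* alone was called with MSL2, at a log2 ratio of 0.82, against 10.3% of 9964 genes called higher and 15.3% called lower. The other 8 genes lay between -0.45 for *dup* and 0.17 for *Mcm5*, and the medians were -0.10 over the 9 genes and -0.11 over all genes. The means of MSL2-metafemales have a larger column total than any other group. With every column scaled to the same total the median of all genes moved by -0.27, *CycE* stood at 0.56 and was not called, and *dup* was called lower at -0.72. CycE-RB, which has the highest *CycE* mean over the whole table, had the opposite direction at -1.25, whereas CycE-RD, the most abundant one in both of these groups, was higher with MSL2, as described below.

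The comparison of aneuploids with diploids asks how extra copies of an arm act on genes elsewhere in the genome. In metafemales, 6 of the 9 genes were called lower than in diploid females and 0 higher, against 31% of 10804 genes called lower and 18.6% called higher. *CycA* had the lowest log2 ratio at -1.72, followed by *CycE* at -1.25, *polo* at -1.04, *CycB* at -0.73, *stg* at -0.69 and *Mcm5* at -0.64. The *CycE* difference came from CycE-RB, with 3.60 CPM in metafemales and 14.0 in diploid females, whereas CycE-RD had 3.85 and 3.65 CPM. *Mcm2* and *dup* stood at -0.43 and -0.29, and the X-linked *Myb* at 0.19. The median of all X-linked genes in this comparison was 0.20, and that of genes on the autosomes other than 2L was -0.27. The median of the 9 genes was -0.69 on the log2 scale, beside -0.19 over all genes, and 3 genes stayed called lower after centring on the latter.

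In trisomy 2L males, 4 of the 9 genes were called lower than in diploid males and 1 higher, against 31.3% of 11580 genes called lower and 23.9% called higher. The 4 were *CycA* at -1.04, *polo* at -0.77, *CycE* at -0.69 and *Myb* at -0.65, and the gene called higher was *dup* at 0.72. After centring on the median of all genes 2 stayed called lower. With CycA-RA alone, *CycA* stood at -0.42 and was not called. The call of *dup* rested on dup-RB, which starts 374 bases downstream of dup-RA and had 11.6 CPM in trisomy 2L males and 1.88 CPM in diploid males, whereas dup-RA had 8.25 and 10.2 CPM. With dup-RA alone the log2 ratio was -0.30.

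In trisomy 2L females, only *CycE* was called against diploid females, at 0.64, beside 25% of 11004 genes called higher and 24.1% called lower. Summed over the transcripts with a value in both groups, the *CycE* ratio was -0.094 on the log2 scale. *polo* and *Myb* were just inside the 1.5-fold line at -0.57 and -0.56 and just past it with equal column totals, and the median was -0.091 over the 9 genes and -0.062 over all genes. The median of all genes on 2L was 0.28 in this comparison and 0.18 in males, so *CycE* lay above that median in females and below it in males. Comparisons with and without MSL2 share the aneuploid means with the comparisons against diploids.

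**Figure D2:**
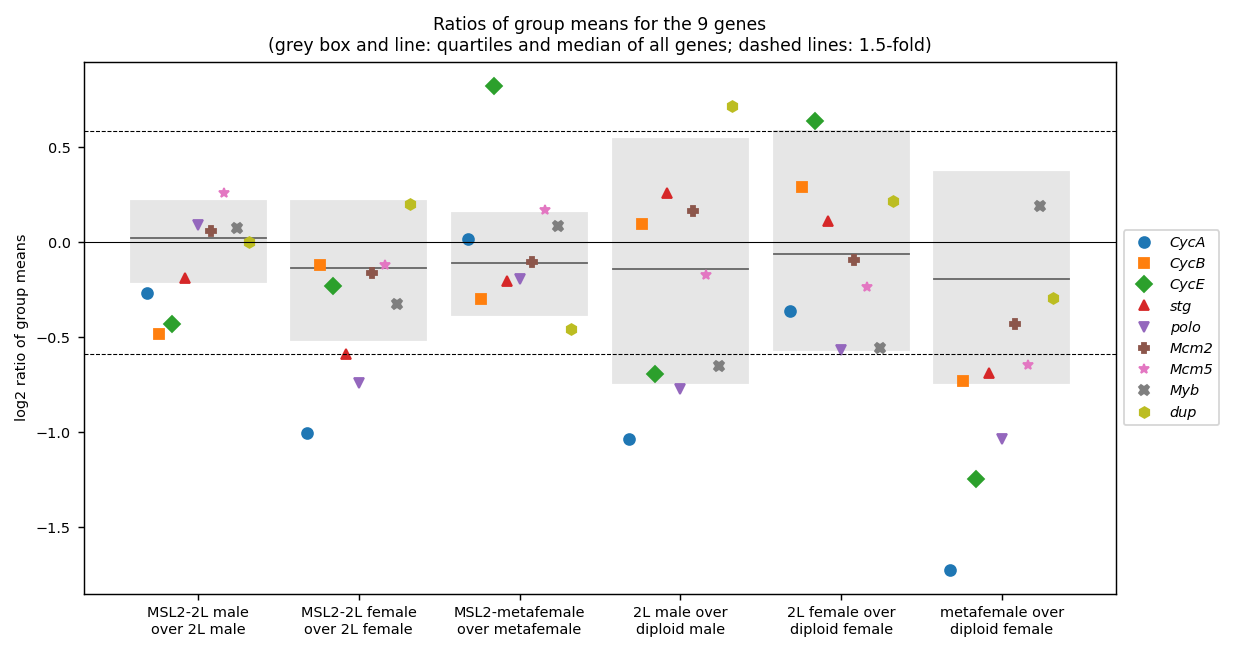
Log2 ratio of group means (vertical axis) of the 9 genes in 3 comparisons with and without MSL2 and 3 comparisons of aneuploids with diploids. Grey boxes span the quartiles of all genes, grey lines give their median and dashed lines mark 1.5-fold. *CycA* reaches -1.72 in metafemales, and no gene passes a dashed line with MSL2 in trisomy 2L males.

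The sexes were compared in 3 pairs of groups of the trisomy 2L table. In diploids, 4 of the 9 genes were called higher in males than in females and 0 lower, against 27.8% of 10983 genes called higher and 8.66% called lower. The 4 were *CycE* (1.44), *polo* (1.16), *CycA* (1.03) and *CycB* (0.85). *CycE* turned to a log2 ratio of -1.65 over transcripts with a value in both groups, and CycA-RA alone stood at 0.15. In trisomy 2L, *polo* (0.96) and *CycB* (0.66) were called higher in males and 0 genes lower, against 28% of 11428 genes called higher and 5.33% called lower. The *CycB* span shared by CycB-RA and CycB-RE, with the highest mean over the table, went the other way on its own, at -0.26. With MSL2, *polo* (1.79), *CycA* (1.10) and *Myb* (0.78) were called higher in males and 0 genes lower, against 37% of 10345 genes called higher and 9.85% called lower. The median of all genes was itself 0.34 here, and *Myb* was not called once centred on it. *CycE* stood at -0.087, but at 1.06 over the transcripts with a value in both groups.

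The diploids of the metafemale table did not repeat this. There, 0 of the 9 genes were called between males and females, against 21.3% of 10742 genes called higher in males and 18.5% called lower, with *polo* at 0.39, *CycB* at 0.073, *CycA* at -0.25 and *CycE* at -0.41. Of genes measured in both tables, 55.3% differed by at least 1.5-fold between the 2 diploid male means and 49.4% between the 2 diploid female means. In diploid males, *polo*, *CycE*, *CycB* and *CycA* were lower in the metafemale table, with log2 ratios of that table over the trisomy 2L table of -0.89, -0.89, -0.86 and -0.83. The sequencing group, the larvae and the normalization of the 2 tables cannot be told apart.

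Several transcripts differed between the sexes more than the gene sums did, and they were picked after their values were seen. CycA-RC, which ends 364 bases beyond CycA-RA at its 3′ end and codes for 3 bases less, had 54.2 CPM in diploid males and 5.44 in diploid females. It made up 51.6% of *CycA* in these males and 10.6% in these females. In trisomy 2L it had 13.2 CPM in males and 6.54 in females, and with MSL2 13.9 CPM in males and 0.46 in females. In the diploids of the metafemale table it had 11.7 CPM in males and 4.08 in females.

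The longer polo-RA, whose 3′ end lies 263 bases beyond that of polo-RB, had 9.16 CPM in diploid males and 0.78 in diploid females. The values were 4.16 and 1.11 CPM in trisomy 2L males and females, 4.71 and 0.88 CPM in MSL2-trisomy 2L males and females, and 6.09 and 1.11 CPM in diploid males and females of the metafemale table. polo-RA held at most 6.25% of *polo*, so the difference in the gene sum came mainly from polo-RB. CycB-RC, which starts 645 bases downstream of CycB-RA and lacks 90 of its coding bases, was also higher in males in all 4 pairs. With MSL2 in trisomy 2L it had 15.01 CPM in males and 0.91 in females, but in diploids it had 12.8 CPM in males and 8.59 in females.

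CycE-RD went the other way. It had 1.51 CPM in diploid males and 6.08 in diploid females, and 0.35 CPM in trisomy 2L males and 4.25 in trisomy 2L females. MSL2-trisomy 2L males have no value for it, and MSL2-trisomy 2L females had 8.92 CPM. In MSL2-metafemales CycE-RD had 11.6 CPM and made up 88.2% of *CycE*, against 3.85 CPM and 51.6% in metafemales. CycE-RB had 1.52 CPM in MSL2-metafemales and 3.60 CPM in metafemales, so the higher *CycE* sum with MSL2 came from CycE-RD.

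**Figure D3:**
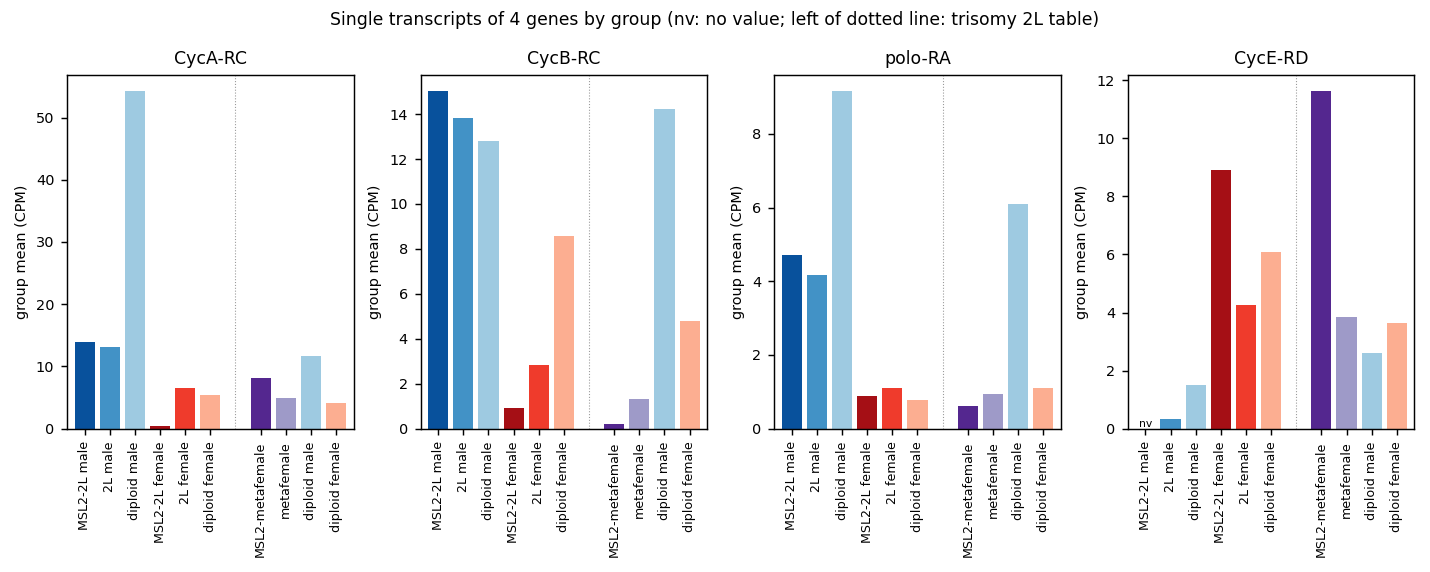
Group means in CPM (vertical axes, from 0) of CycA-RC, CycB-RC, polo-RA and CycE-RD in all 10 groups, with 1 bar for each mean and "nv" where no value is given. CycA-RC, CycB-RC and polo-RA are higher in males in each of the 4 pairs, and CycE-RD is higher in females in the 3 pairs that have both values.

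Other genes of the same processes were counted in 5 lists, which contain the 9 genes themselves. With MSL2 in trisomy 2L females, where 21.5% of all genes were called lower and 10.8% higher, 8 of 20 genes of mitosis were called lower and 0 higher, between *Klp61F* (-1.75), a kinesin of the spindle, and *Incenp* (0.047), a subunit of the chromosomal passenger complex. Of 17 cyclins, CDKs and regulators, 7 were called lower and 0 higher, from *twe* (-1.39), the germline Cdc25 phosphatase, to *Myt1* (-0.04), an inhibitory kinase of Cdk1. The median log2 ratios were -0.52 for mitosis and -0.49 for cyclins, beside -0.14 over all genes. Of origin licensing and helicase genes 2 of 22 were called lower and 1 higher, and of replication fork genes 2 of 19 lower and 0 higher. Of 11 genes of E2F and dREAM, 3 were called lower and 0 higher, a share near that of all genes. With MSL2 in males, where 8.46% of all genes were called lower and 8.13% higher, 2 of 20 mitosis genes were called lower and 0 higher, and 0 of 17 cyclins lower and 1 higher.

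In metafemales over diploid females, where 31% of all genes were called lower and 18.6% higher, 15 of 20 mitosis genes were called lower and 0 higher, between *Incenp* (-2.36) and *Mad1* (-0.01), a spindle checkpoint gene. Cyclins, CDKs and regulators had 11 of 17 lower and 0 higher, from *Cdk1* (-1.86) to *CycD* (0.19). Origin genes had 12 of 22 lower and 2 higher, from *Cdc7* (-3.69), a kinase of origin firing, to *dpa* (1.09), the Mcm4 subunit. Fork genes had 8 of 20 lower and 0 higher, with *Prim1* lowest at -2.86 and *Gnf1* highest at 0.03, and E2F and dREAM genes 4 of 11 lower and 0 higher, with *E2f1* lowest at -1.62 and *Rbf* highest at 0.49. The share of E2F and dREAM genes called lower was near that of all genes. The list medians ran from -0.97 for mitosis and -0.89 for cyclins to -0.67 for origins, -0.51 for E2F and dREAM and -0.50 for forks, beside -0.19 over all genes.

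Between the sexes with MSL2, 17 of 20 mitosis genes and 11 of 17 cyclins, CDKs and regulators were called higher in males and 0 lower, beside 37% of all genes called higher. The extremes were *pim* (2.75), the securin, and *Incenp* (0.08) in mitosis, and *twe* (4.62) and *CycE* (-0.09) among the cyclins. In trisomy 2L without MSL2, 11 of 20 mitosis genes and 5 of 17 cyclins were called higher in males and 0 lower, beside 28% of all genes called higher, a share near that of the cyclins. In diploids of the trisomy 2L table the counts were 10 of 20 and 8 of 17 higher and 0 lower, beside 27.8% of all genes called higher. In diploids of the metafemale table, 4 of 20 mitosis genes were called higher and 1 lower, and 4 of 17 cyclins higher and 1 lower, beside 21.3% and 18.5% of all genes.

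**Figure D4:**
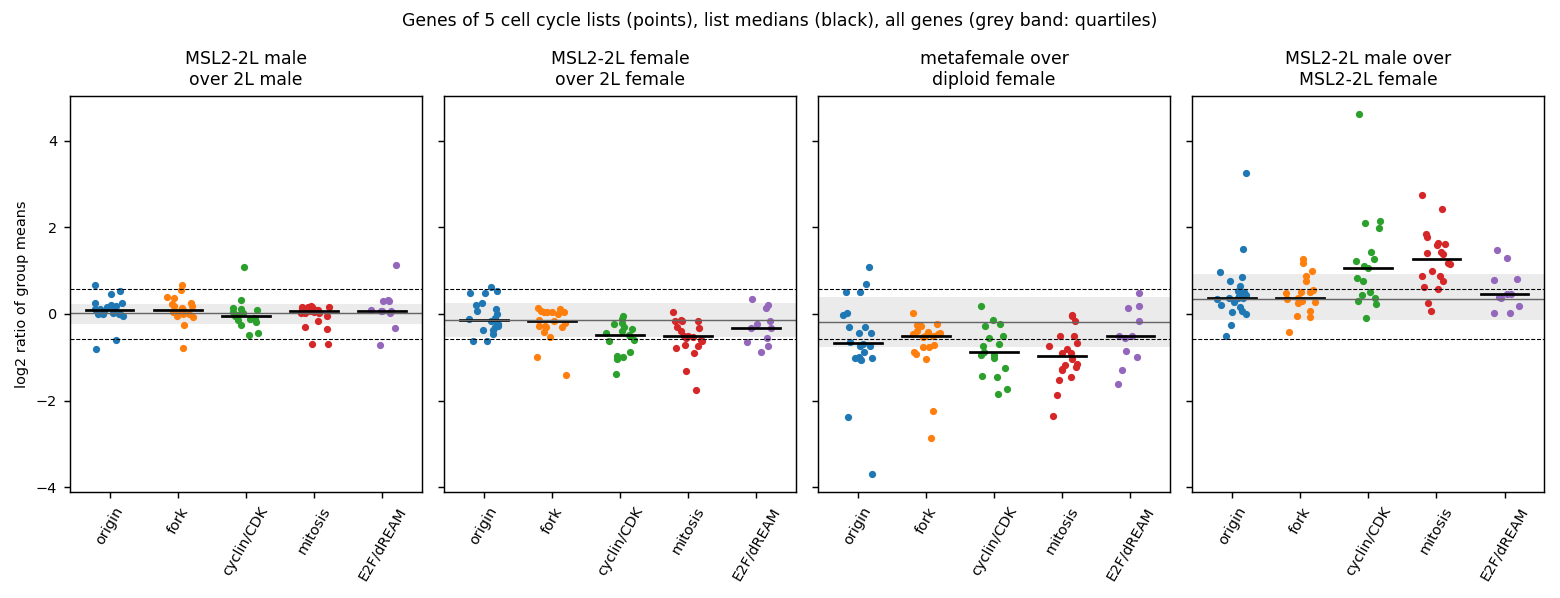
Log2 ratio of group means (vertical axis) for the genes of 5 cell cycle lists in 4 comparisons, with 1 point for each gene, a black bar at the list median, a grey band over the quartiles of all genes and dashed lines at 1.5-fold. The mitosis list has a median of -0.97 in metafemales over diploid females and -0.52 with MSL2 in trisomy 2L females.

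Marker genes of dividing tissues and of larval stage differed between the same groups, though not always in the direction of the 9 genes. In whole larvae, fewer cells of a type and less RNA per cell cannot be told apart. The markers were not sorted by chromosome. Any marker on 2L has 3 copies in trisomy 2L, and any on the X has 3 in metafemales. All 8 imaginal disc markers, 7 larval neuroblast markers and 5 salivary glue genes, which switch on late in larval life, had values in every group. In metafemales, 6 of 8 disc markers, 4 of 7 neuroblast markers and 5 of 5 glue genes were called lower than in diploid females and 0 higher. Of all genes, 31% were called lower and 18.6% higher in this comparison. The summed means were 155 CPM in metafemales and 288 in diploid females for the disc markers, 67.3 and 95.3 CPM for the neuroblast markers, and 3899 and 40620 CPM for the glue genes.

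With MSL2 in trisomy 2L females, 5 of 5 glue genes were called lower, and their sum was 787 CPM with MSL2 and 7457 without it. Only 2 of 8 disc markers and 2 of 7 neuroblast markers were called lower, shares near the 21.5% of all genes called lower. The disc markers had a median log2 ratio of -0.44, although *hth*, the largest, had 49.6 CPM with MSL2 and 42.9 without. The neuroblast sum was 37.2 CPM with MSL2 and 78.1 without, which came mainly from *brat*, with 5.47 and 28.3 CPM, and *grh*, with 2.51 and 18.0 CPM, and the list's median log2 ratio was -0.30. With MSL2 in males, where 0 of the 9 genes were called, 3 of 8 disc markers and 3 of 5 glue genes were called higher, beside 8.13% of all genes. Their sums were 209 against 137 CPM and 10795 against 7778 CPM.

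In trisomy 2L over diploids, all 5 glue genes were called lower in both sexes, beside 31.3% of all genes in males and 24.1% in females. Their sums were 7778 CPM in trisomy 2L males and 26501 in diploid males, and 7457 CPM in trisomy 2L females and 27263 in diploid females. The neuroblast markers had sums of 64.4 CPM in trisomy 2L males and 87.7 in diploid males, but of 78.1 CPM in trisomy 2L females and 50.9 in diploid females. Both differences came mainly from *brat* and *grh*. *brat* had 20.6 CPM in trisomy 2L males, 30.5 in diploid males, 28.3 in trisomy 2L females and 14.6 in diploid females. *grh* had 9.35, 23.0, 18.0 and 5.22 CPM in the same groups. In both sexes *dpn* and *ase* were lower in trisomy 2L and *mira* and *insc* higher, while *wor* was lower in females and higher in males. The disc sums were 137 CPM in trisomy 2L males and 178 in diploid males, and 131 CPM in trisomy 2L females and 159 in diploid females. The median log2 ratio of the disc markers was -0.30 in males but 0.23 in females, where 3 of 8 were below the diploid level. The lower sum in females came mainly from *hth*, with 42.9 CPM in trisomy 2L and 61.0 in diploids, and *ap*, with 25.3 and 50.4 CPM. The 6 fat body genes went in both directions. With MSL2 in trisomy 2L females *Lsp2* had 2178 CPM against 15419 without it and *Lsp1beta* 69958 against 48487, and *Lsp1alpha* had 6586 CPM in metafemales and 1090 in diploid females while *Fbp1* had 2727 and 16155 CPM. The part of larval stage and tissue makeup in the values of the 9 genes was not tested. The part of copy number in the marker values was not tested either.

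Spermatocyte markers moved with sex. Of 11 listed, 10 were found in the trisomy 2L table, where their means summed to 170 CPM in MSL2-trisomy 2L males, 227 in trisomy 2L males and 522 in diploid males, and to 2.09, 4.603 and 5.06 CPM in the corresponding females. *bol* alone held 60.1, 109 and 352 CPM of the sums in males, and without it they were 110, 118 and 170 CPM. *twe* made up most of the sum in females and stands in the cyclin list too. The female sums rest on 3 markers with a value in MSL2-trisomy 2L, 8 in trisomy 2L and 7 in diploids. Only 8 markers were found in the metafemale table, with sums of 1.71 CPM in MSL2-metafemales, 4.20 in metafemales, 85.6 in diploid males and 5.42 in diploid females. A value was given for only 2 of them in MSL2-metafemales, for 7 in diploid females and for all 8 in the other groups. The diploid males of the trisomy 2L table, with the highest spermatocyte sum, also had the highest *CycA*, *CycE*, *polo* and *Myb*. The other members did not peak there. In that table *CycB* and *stg* were highest in trisomy 2L males, and *Mcm2*, *Mcm5* and *dup* in MSL2-trisomy 2L males. The lowest *dup* mean of that table was in diploid males. In the metafemale table diploid males again had the highest spermatocyte sum, but only *CycB* and *polo* were highest in them. *Myb* was highest there in MSL2-metafemales, and the other members, with *CycA* and *CycE*, in diploid females. The 6 germline markers summed to 29.0 CPM in MSL2-trisomy 2L males, 29.0 in trisomy 2L males and 25.5 in diploid males, and to 3.356, 5.79 and 6.41 CPM in the corresponding females. The part of the male gonad in the differences between the sexes was not tested.

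Over the 10 group means, centred within each table, *CycA* and *polo* followed the mean of the other 8 genes most closely, with Pearson's r of 0.94 and 0.92. *CycB*, *stg*, *Mcm2* and *Mcm5* had r between 0.74 and 0.84, *CycE* 0.56, *Myb* 0.42 and *dup* 0.077. Profiles were compared for 9405 genes with a value in all 10 means and an average of at least 1 CPM in each table. Of these, the genes outside the 9 that were most like their mean profile were *Wdr82*, *spi*, *SMC5*, *stai* and *nkd*, each with r of 0.97. These 10 means share tables and batches, so the coefficients are descriptions only.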

How the data were processed

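Whole-larva RNA was sequenced by the study. The authors mapped reads to *Drosophila* release 6 with HISAT2, quantified transcripts with StringTie, divided transcript counts by mapped reads to give CPM, adjusted batches with ComBat on a log scale, removed values not above 0 and averaged replicates before the means were deposited. These deposited values are called CPM in the text, although the batch adjustment means that a column need not sum as CPM do, and the MSL2-metafemale column has the largest total. The deposited ratio columns hold the authors' own comparisons and were not used. The diploid means are the authors' means of libraries not labelled here.

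Transcript rows were summed per gene symbol, leaving out 1 row of the trisomy 2L table (0.0035%) and 2 of the metafemale table (0.0083%) with no symbol, and ratios of group means were taken within a table. Named were the 9 genes, the highest and lowest gene of a list where it is described, and the 5 genes most like the mean profile. The letters NA are missing from some symbols, so list genes were also matched by synonym and position. Transcripts were named where their start and end matched a transcript of the BDGP6.54 annotation. The members and lists were chosen with earlier results of these data known. Of the lists, *mia* was found in neither table, and *bol* and *vis* not in the metafemale table. No p-value, interval or count test was possible with 1 mean per group. Alternatives changed the column scaling, centring, pseudocount, transcripts used and minimum CPM. Promoter sequences were not analysed here. Functions were tested on simulated data. Python 3.11.15, numpy 2.4.6, pandas 2.3.3 and matplotlib 3.10.9 were used.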

Additional observations from a re-analysis of the deposited data

How the results depend on the processing

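No paired analysis was possible because each table gives 1 mean per group and no library values, so no replicate could be left out either. The depth of each mean is unknown. Of 99 medians over the 9 genes recomputed under alternatives, 78 moved by less than 0.1 on the log2 scale. This count includes the settings of the minimum CPM, which could not change it. Each of the 9 genes averaged more than the highest minimum of 10 CPM in both tables, with *dup* lowest at 11.1 CPM. Equal column totals gave -0.37 for MSL2-metafemales over metafemales. Totals without the top 100 transcripts gave medians of 0.33 for diploid males over females, 0.15 for trisomy 2L males over females and 0.23 for the same with MSL2. Centring on all genes gave -0.094 for MSL2 in trisomy 2L females, 0.0091 for MSL2 in metafemales, -0.030 for trisomy 2L males and -0.49 for metafemales over diploids, and 0.34, 0.064 and 0.024 for males over females in diploids, trisomy 2L and MSL2-trisomy 2L. Transcripts with a mean in both groups gave -0.073 for diploid males over females. The transcript with the highest mean over a table's groups gave -0.58 for MSL2 in trisomy 2L females, -0.42 for trisomy 2L males over diploids and 0.030 for trisomy 2L males over females.

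Chosen after seeing the data, leaving out *CycE* gave -0.038 for trisomy 2L males over diploids and 0.20 for diploid males over females. Leaving out *CycA*, *CycB*, *CycE* and *polo* gave 0.16 and -0.11 for the same, -0.43 for metafemales over diploids and 0.14 for trisomy 2L males over females. Of 727 single gene ratios, 709 moved by less than 1.5-fold, and 201 of 223 called ratios stayed called in their direction. The called ratios that changed sign were *CycE* in trisomy 2L females over diploids (-0.094) and diploid males over females (-1.65) on shared transcripts, and, on the transcript with the highest mean over the table, *CycE* with MSL2 in metafemales (-1.25 for CycE-RB, though CycE-RD was the most abundant in both groups), *dup* in trisomy 2L males over diploids (-0.30) and *CycB* in trisomy 2L males over females (-0.26). Ratios not called changed sign 32 times. Of these, *CycE* in MSL2-trisomy 2L males over females turned to 1.06 on shared transcripts, and with MSL2 in trisomy 2L males to 0.44 on the transcript of highest mean. These transcript settings use fewer transcripts by construction.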
